A study of Mus musculus with 12 samples.

Results

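Unannotated testis transcripts are the rows of the deposited expression table that the authors named as new gene models (identifiers beginning with BGI_novel) and that carry no NCBI Gene ID. The table holds 1933 of them among 22221 rows. Those with at least 1 FPKM (fragments counted per kilobase of transcript and scaled to library size) in 3 or more of the 12 libraries were kept, which left 1017. The same rule kept 14455 of the 20288 rows with a Gene ID, which serve as the comparison. The table pairs the new identifiers with no symbol. The positions, exons, strands and sequences of these transcripts were not used here, so none is printed, and whether a given one is a noncoding gene, a coding gene or a piece of a known gene is not known.

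The testis transcribes an unusually wide part of the genome. Meiotic spermatocytes and the haploid round spermatids that follow them express many long noncoding RNAs and retrotransposon-derived transcripts found in few other tissues, and many of these are missing from reference annotation. Assembly of sequencing reads outside known genes therefore yields many new models in testis RNA. Such models can be whole genes, unannotated ends or antisense partners of known genes, or copies of them.

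RNA was sequenced from testes of ICR mice, an outbred stock, in 4 groups of 3 libraries. The Con group was untreated. At 3 weeks of age the other 3 groups all received busulfan once, a DNA-alkylating agent toxic to dividing germ cells. Sa mice were then given saline. IMC and IMA10 mice were given gut microbiota, taken from water-dosed donors for IMC and from donors dosed with 10 mg/kg alginate oligosaccharide for IMA10. Dosing with microbiota lasted 2 weeks, and the testes were collected 3 weeks later. The deposited design speaks of cultured testis without describing a culture. No age is stated for Con mice, nor whether libraries within a group are different animals, so the p-values reflect only how these libraries vary, which may be technical. Con columns are named with a different prefix from the rest, so a batch and the untreated state cannot be told apart.

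One library stood apart from its group. The summed level of 8 elongating spermatid markers, among them the protamines Prm1 and Prm2, was 37380 to 39770 FPKM in Con, 183.3 to 1933 in Sa and 104.2 to 234 in IMC. In IMA10 it was 29.2 and 58.8 FPKM in replicates 1 and 2 but 3285 in replicate 3. The summed level of 8 Sertoli cell markers ran the other way, at 414.1 to 494.7 FPKM in Con and 7206 to 8922 in Sa, with 13790, 10700 and 2323 in IMA10 replicates 1 to 3. All 8 elongating spermatid markers fell and all 8 Sertoli markers rose in Sa against Con (median log2 differences -5.50 and 3.56). Of 4 epididymis markers 3 are among the rows used here and none passed the filter, their sum staying at or under 1.03 FPKM. In such bulk tissue, fewer cells of a type and less RNA per cell cannot be told apart.

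The unannotated transcripts were low and patchy. Of the 1933, 57 were listed at 0 in all libraries, 659 stayed below 1 FPKM everywhere and 257 reached it in only 1 or 2 libraries. The 5 kept with the lowest third-highest value stood at 1 FPKM there, and the 5 nearest below the limit at 0.98 to 0.99. The median of the kept transcripts, averaged over 12 libraries, was 2.62 FPKM (quartiles 1.14 and 8.24), against 11.5 FPKM for rows with a Gene ID. At least 1 FPKM in all 12 libraries was reached by 270 of the kept transcripts (26.5%) and by 68.2% of the kept rows with a Gene ID. Another 261 (25.7%, against 13.6% of Gene ID rows) reached 1 FPKM in no Con library, and 36 (3.54%, against 1.36%) reached it in Con alone. For 63 more the only library outside Con that reached 1 FPKM was IMA10 replicate 3. Members of these last classes passed the filter through the groups where they are high, so their differences from the other groups follow in part from the filter.

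A few abundant transcripts held much of the signal. Unannotated rows made up 2.75 to 3.34% of the summed FPKM of a library, and the 10 with the highest mean held 22.2% of the unannotated total. The 100 highest held 69.0%. As group means the unannotated share was 2.90% ± 0.0929 in Con, 3.02% ± 0.11 in Sa, 2.96% ± 0.0994 in IMC and 2.98% ± 0.319 in IMA10 (SD, n = 3). None of the 6 differences between groups passed an exact two-sided permutation test (p = 0.3 to 1, adjusted p = 1, smallest possible p = 0.1). The sign of the 3 differences from Con depended on the 10 most abundant transcripts. Without them the share in percentage points was lower in Sa than in Con (a difference of -0.0779) rather than 0.113 higher. The number of unannotated transcripts with at least 1 FPKM was 711 to 726 in Con, 718 to 779 in Sa, 676 to 735 in IMC and 583, 674 and 774 in IMA10 replicates 1 to 3. IMA10 replicate 1 had the fewest, and replicate 3 lay within the Sa range.

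The transcript with the highest mean was BGI_novel_G001834, with 699.16, 514.8 and 467.19 FPKM in Con replicates 1 to 3 and 435.05, 372.34 and 467.27 in Sa. It had 337.95, 546.53 and 250.26 FPKM in IMC and 305.82, 468.05 and 713.24 in IMA10. All 4 groups overlapped, and its log2 difference of -0.38 ± 0.35 (SE) between Sa and Con did not pass (limma adjusted p = 0.328). BGI_novel_G001950, the next in order, had 383.93 to 397.34 FPKM in Con, 418.74 to 559.64 in Sa, 399.86 to 496.24 in IMC and 423.59 to 568.17 in IMA10. Every busulfan library was above every Con library, by a small margin (Sa minus Con 0.25 ± 0.17 on the log2 scale, limma adjusted p = 0.203). The direction of both depended on scaling. With median-of-ratios scaling BGI_novel_G001950 stood at -0.55 (limma adjusted p = 0.0267) and BGI_novel_G001834 at -1.19 (adjusted p = 0.0144). With quantile normalization they stood at 0.73 (limma adjusted p = 0.0023) and 0.08 (adjusted p = 0.831).

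**Figure D1:**
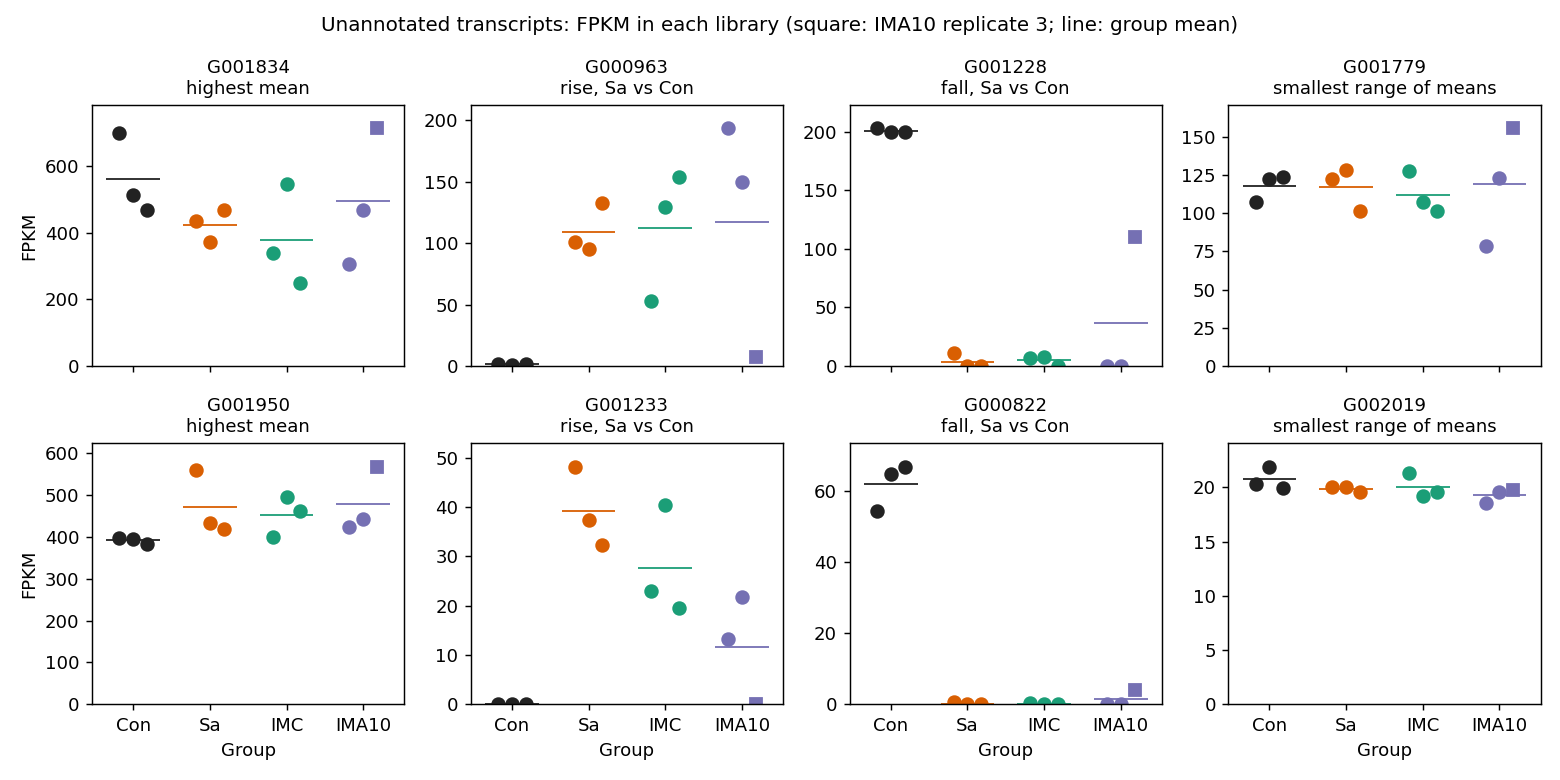
FPKM (vertical axes, each starting at 0) of 8 unannotated transcripts in the 12 libraries, by group; points are libraries, squares mark IMA10 replicate 3 and lines are group means. G000963 and G001233 are high in every busulfan library except IMA10 replicate 3, G001228 and G000822 are high in Con, and the group means of each of the other 4 lie within 0.57 on the log2 scale.

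Others had almost the same mean in every group. The 2 with the smallest range of group means on the log2 scale, among those with at least 5 FPKM in every group, were BGI_novel_G001779 and BGI_novel_G002019. BGI_novel_G002019 had 19.93 to 21.91 FPKM in Con, 19.54 to 20.03 in Sa, 19.2 to 21.36 in IMC and 18.52 to 19.73 in IMA10, a range of group means of 0.10 on the log2 scale. BGI_novel_G001779 averaged 118 ± 9.03 FPKM in Con, 117 ± 14.3 in Sa, 112 ± 13.6 in IMC and 119 ± 38.5 in IMA10 (SD, n = 3). Its IMA10 libraries were far apart, at 78.65, 122.97 and 155.38 FPKM in replicates 1 to 3. The group means of both transcripts are near constant in FPKM only. With median-of-ratios scaling both were lower in Sa than in Con, by log2 differences of -0.81 for BGI_novel_G001779 (limma adjusted p = 0.0146) and -0.83 for BGI_novel_G002019 (adjusted p = 0.00114).

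Sa and Con differ in busulfan treatment and in the saline given after it, and a difference in batch or age cannot be told apart from these. Against Con, 342 of the 1017 unannotated transcripts rose (33.6%) and 247 fell (24.3%), by limma at an adjusted p under 0.05. Over all 15472 rows tested, 52.0% rose and 19.2% fell. The median log2 difference was 0.18 for unannotated transcripts and 0.64 for rows with a Gene ID. Unannotated transcripts thus held a smaller share of rises than the table as a whole and, in this fit, a larger share of falls. The share of falls was close to that of all rows with median-of-ratios scaling (39.7% against 39.2%) and with no filter (17.0% against 16.2%). The gap between these medians, unannotated minus Gene ID, kept its negative sign in all 20 settings run, from -0.722 to -0.124. Whether the kept transcripts rose or fell more often did depend on scaling. Median-of-ratios scaling moved the median of all rows by -0.626 and gave 243 rises and 404 falls (37.7% and 39.2% of all rows), and quantile normalization moved it by -0.413 and gave 197 and 365 (36.8% and 29.2% of all rows). Without IMA10 replicate 3 in the fit, 381 rose and 345 fell among 996 tested (55.7% and 30.0% of all rows). Without Con replicate 1, and likewise without Con replicate 2, the falls numbered 164 (16.9%). The falls over all rows dropped too, to 13.2% and 12.9%.

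The types of annotated rows differed from each other as well. Of 14316 protein-coding rows 53.5% rose and 18.6% fell, with a median of 0.64. Of only 36 rows annotated as long noncoding RNA 7 rose and 19 fell, with a median of -1.36, and of 50 pseudogene rows 16 rose and 23 fell, with a median of -1.01. The unannotated transcripts lay between the protein-coding rows and both noncoding types in median and in the percent that fell. At matched tiers of mean level the lower share of rises was still present. In the tier of 5 to 20 FPKM 43.4% of 196 unannotated transcripts and 58.0% of 4922 Gene ID rows rose, and at 20 FPKM or more the shares were 40.4% and 48.0%. Below 2 FPKM they were 26.5% and 50.5%. Falls did not differ in the same way at every level. From 2 to 5 FPKM 30.3% of unannotated transcripts and 17.6% of Gene ID rows fell, but at 20 FPKM or more the shares were 17.8% and 21.3%.

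**Figure D2:**
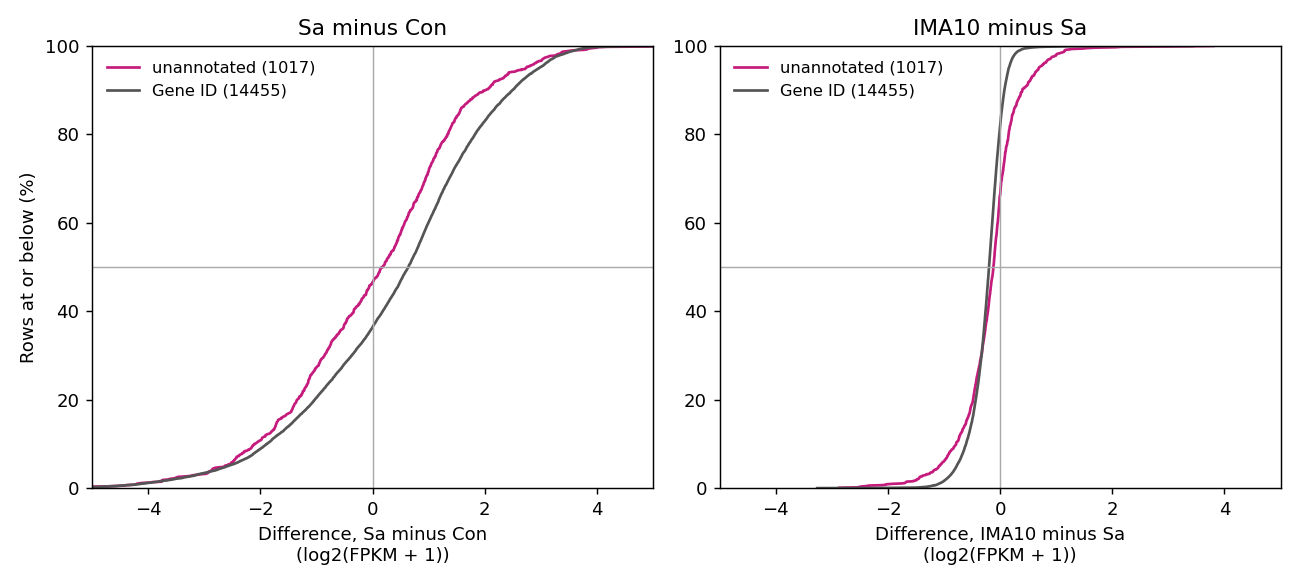
Cumulative percent of rows (vertical axis) at or below each difference of group means on the log2(FPKM + 1) scale (horizontal axis), for 1017 unannotated transcripts and 14455 rows with a Gene ID. In Sa minus Con the unannotated curve lies to the left over most of the range (median 0.18 against 0.64), and in IMA10 minus Sa it is wider than the Gene ID curve.

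Some changes were large. Among the rises the median log2 difference was 1.40 and 100 of the 1017 exceeded 2. Among the falls the median was -1.74 and 103 were below -2. Of 14316 protein-coding rows, 2447 rose by more than 2 and 1104 fell below -2. Large rises thus made up a smaller share of unannotated transcripts than of protein-coding rows, and large falls a larger one. These counts include transcripts that passed the filter through the groups where they are high. Without overlap between Sa and Con libraries, 389 of the 1017 lay higher (38.2%) and 353 lower (34.7%), against 56.9% and 31.3% of all rows tested. In 9 rises Con was listed at 0 in all 3 libraries, and in 8 falls Sa was. An exact 0 in this table may be a failed estimate, so no fold is given for these. Of the 30 unannotated transcripts with a mean of at least 100 FPKM, 14 rose, by 0.98 to 3.33 on the log2 scale, 5 fell and 11 did not pass. Of the 918 Gene ID rows at that level 46.1% rose and 22.1% fell, so the abundant unannotated transcripts, at 46.7% and 16.7%, were near the annotated ones.

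The largest rise with at least 5 FPKM was that of BGI_novel_G000963. It had 1.74, 1.29 and 1.60 FPKM in Con and 100.6, 95.15 and 132.58 in Sa. In IMC it had 53.34, 129.59 and 153.56 FPKM, and in IMA10 193.37, 149.47 and 7.73. Every busulfan library lay above every Con library, with IMA10 replicate 3 far below the other 8. The log2 difference between Sa and Con was 5.43 ± 0.96 (SE, limma adjusted p = 0.000694). BGI_novel_G001233 was listed at 0 in all 3 Con libraries and had 48.21, 37.34 and 32.3 FPKM in Sa, 23.02, 40.52 and 19.54 in IMC and 13.32 and 21.73 in IMA10 replicates 1 and 2. In IMA10 replicate 3 it was again listed at 0. Its rise in Sa passed (limma adjusted p = 0.00062).

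Among the falls BGI_novel_G001228 was the largest. It had 202.61, 199.45 and 199.57 FPKM in Con, a close agreement, and 11.48, 0 and 0.1 in Sa. IMC libraries had 6.84, 8.13 and 0.2 FPKM, and IMA10 libraries 0, 0 and 110.03. The only busulfan library near the Con level was IMA10 replicate 3, and the log2 difference between Sa and Con was -6.40 ± 1.72 (limma adjusted p = 0.00711). BGI_novel_G000822 had 54.31, 64.74 and 66.78 FPKM in Con and 0.54 or less in all Sa and IMC libraries. In IMA10 it had 0.12, 0 and 4.03 FPKM. Replicate 3 was thus above the other busulfan libraries here too, though at a small part of the Con level, and the log2 difference between Sa and Con was -5.76 ± 0.52 (limma adjusted p = 0.000101). The calls of these 4 transcripts held in all 19 alternative settings. All 4 were picked as the largest called changes in this same comparison, so this is not separate support. BGI_novel_G001233 reached 1 FPKM in no Con library, and BGI_novel_G000822 only in Con and IMA10 replicate 3. Both thus passed the filter through libraries where they are high.

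Known genes with the most similar profile over the 12 libraries give context for these transcripts. Because the libraries differ mainly along an axis from untreated to busulfan-treated testis, many genes follow any such profile, and a high correlation sets little apart. BGI_novel_G000963 was most like Rras, a small GTPase (Pearson r = 0.997), Mrps34, a mitochondrial ribosomal protein (0.997), and Cmip (0.996), but 4091 of 11166 genes searched exceeded 0.95. BGI_novel_G001233 was most like H2-Aa, an MHC class II chain of antigen-presenting cells (0.987), which averaged 2.46 FPKM in Con and 20.5 in Sa, followed by Dnaja3, a mitochondrial chaperone (0.983), and Bcl9, a Wnt pathway cofactor (0.982). For it 256 genes exceeded 0.95. The profile of BGI_novel_G000822 was closest to those of Tmem200a (0.997), Ica1 (0.995) and Cnbd2 (0.995), and 502 genes exceeded 0.95 for it. BGI_novel_G001228 was closest to Isca2 (0.983), Dusp22 (0.978) and Naa80 (0.977), and 422 genes exceeded 0.95 for it. For BGI_novel_G001834 no gene exceeded 0.95, and the closest was Eif3f, a translation initiation subunit, at 0.876. BGI_novel_G001950 had 2 genes over 0.95, Sharpin (0.959) and Sap18b (0.957).

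Each unannotated transcript was also set beside the mean profiles of 10 marker lists and assigned to the one with the highest correlation, as a description. The round spermatid list was closest for 261 transcripts (25.7%, against 18.4% of Gene ID rows), the Sertoli list for 170 (16.7%, against 28.0%), the spermatocyte list for 132 (13.0%, against 14.9%) and the elongating spermatid list for 98 (9.64%, against 5.44%). The 2 spermatid lists were thus closest for a larger share of unannotated transcripts than of annotated rows, and the Sertoli list for a smaller one. Other lists differed as well. The red blood cell list was closest for 52 (5.11%, against 1.19%), with a median r of only 0.542. The peritubular myoid list was closest for 58 (5.7%, against 9.46%). These lists share libraries and move together: the 2 spermatid lists correlated at 0.986 and the elongating spermatid and Sertoli lists at -0.952. A correlation over 0.9 with any list was reached by 474 transcripts (46.6%), against 74.3% of Gene ID rows, and 135 stayed under 0.5 with all of them. The profile of a bulk level does not show which cells made a transcript.

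The 2 other busulfan groups, set against the same Con libraries, gave similar numbers. In IMC 336 unannotated transcripts rose and 296 fell (33.0% and 29.1%, with 50.8% and 23.3% of all rows). In IMA10 304 rose and 294 fell (29.9% and 28.9%, with 47.7% and 23.9% of all rows). Since the 3 comparisons share the Con libraries, their likeness is in part built in. The falls in IMC numbered 195, 200 and 198 without Con replicates 1, 2 and 3, and 194 without IMC replicate 3. Over all rows they dropped too, to 15.7%, 15.4%, 15.3% and 14.6%. The falls in IMA10 numbered 179 to 193 without any 1 of Con replicates 1 to 3 or IMA10 replicates 1 and 2. In those fits 14.1 to 15.5% of all rows fell. Libraries did not overlap with Con in 369 higher and 368 lower transcripts in IMC (55.1% and 33.2% of all rows) and in 297 and 231 in IMA10 (49.3% and 18.1%). With scaling the balance turned, with the median of all rows moved by -0.556 in IMC and -0.429 in IMA10 under median-of-ratios scaling. Median-of-ratios gave 251 rises and 422 falls in IMC (39.0% and 40.6% of all rows) and 236 and 388 in IMA10 (36.9% and 37.1%). Quantile normalization gave 223 and 389 in IMC (39.4% and 31.8%) and 234 and 358 in IMA10 (39.0% and 28.4%). Without IMA10 replicate 3 itself 351 rose and 398 fell in IMA10 (51.6% and 35.0% of all rows), and 363 rose and 364 fell in IMC (53.7% and 32.2% of all rows).

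IMA10 replicate 3 stood nearer to Con on most of these transcripts. Of the 342 that rose in Sa, 226 lay nearer to the Con mean than to the Sa mean in this library, against 16 to 55 in each of the IMC libraries and the other IMA10 libraries. Of the 247 that fell, 136 did so, against 1 to 10. Its median position was 41.2% of the way from Con to Sa among the rises and 45.3% among the falls. The falls went further than in Sa in IMA10 replicates 1 and 2, to 134% and 123% of the way, and in IMC replicate 3, to 119%. The positions compare libraries with the Sa mean that chose the transcripts, and the summed markers given above move with them.

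**Figure D3:**
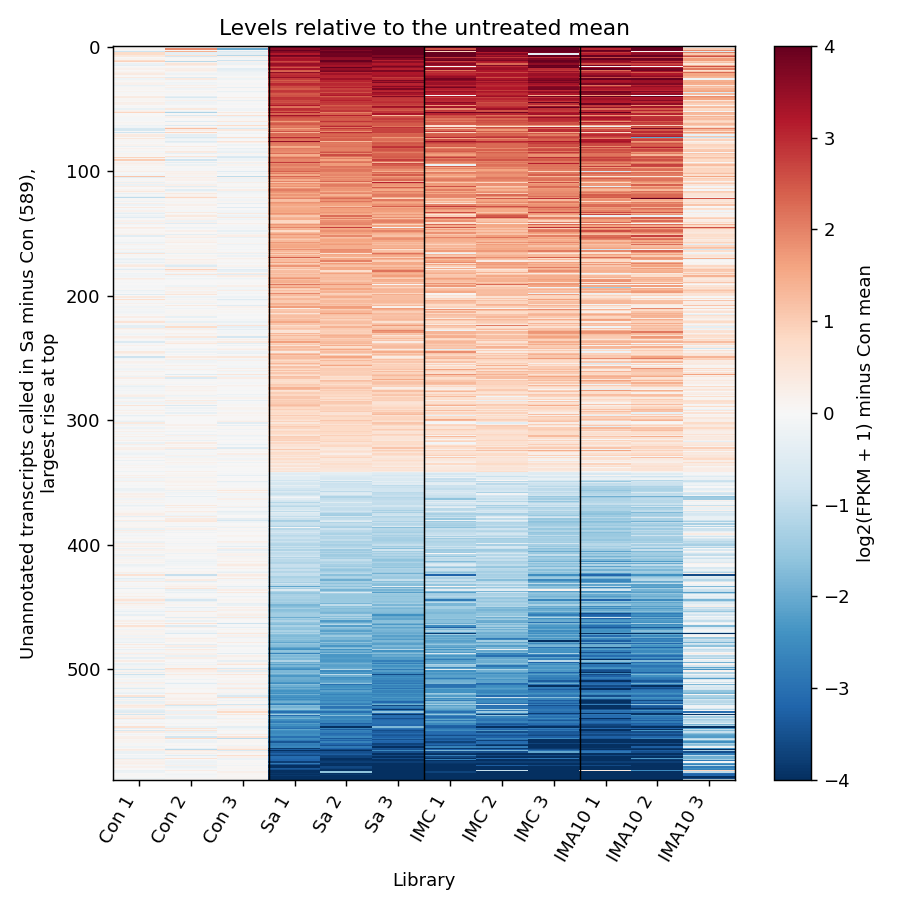
Difference of each library from the Con mean on the log2(FPKM + 1) scale (colour, from -4 to 4) for the 589 unannotated transcripts called in Sa minus Con (rows, largest rise at top) in the 12 libraries (columns). IMA10 replicate 3 is paler than the other 8 busulfan libraries for both rises and falls.

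Whether microbiota of water-dosed donors changed these transcripts after busulfan is addressed by IMC minus Sa. No unannotated transcript passed (limma, 0 of 1017, with 0% of all rows), and 19 (1.87%) had an unadjusted p under 0.05, against 0.866% of all rows. The fit pools the spread of all groups, IMA10 replicate 3 included. Without that library 86 of 996 had an unadjusted p under 0.05 (1241 of 15412 over all rows), and still none passed adjustment. The median log2 difference was -0.07, and 0.01 with quantile normalization. Among transcripts whose higher group averaged 5 FPKM or more, the smallest p upward belonged to BGI_novel_G002053, at 12.97, 13.4 and 8.49 FPKM in IMC against 4.66, 5.27 and 6.99 in Sa. The groups did not overlap, and the log2 difference was 0.92 ± 0.39 (limma adjusted p = 1). Downward it was BGI_novel_G001168, at 1.49, 1.88 and 1.28 FPKM in IMC against 6.16, 12.87 and 6.53 in Sa, with a difference of -1.84 ± 0.61 (limma adjusted p = 1). In IMC minus Sa 31 unannotated transcripts lay higher without overlap and 55 lower, against 3.32% and 6.02% of all rows.

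The comparison of IMA10 with Sa asks the same of microbiota from oligosaccharide-treated donors. None of the unannotated transcripts passed (limma, 0 of 1017, with 0% of all rows), and 81 (7.96%) had an unadjusted p under 0.05, against 6.0% of all rows. Without overlap between libraries 8 lay higher and 76 lower, against 0.633% and 7.17% of all rows. The absence of calls rested on IMA10 replicate 3. Without that library 44 of 996 were higher and 193 lower, or 4.42% and 19.4%, while 7.38% and 24.7% of all rows were. Both shares were thus under those of the whole table. The summed marker levels of IMA10 replicates 1 and 2 were below Sa for spermatids. Round spermatid markers had 17.6 and 44.5 FPKM, against 92.4 to 208 in Sa. Spermatocyte and spermatogonia markers were also below Sa (spermatogonia 167.4 and 191.5 FPKM, against 230.3 to 270.4). Sertoli markers were above Sa, while Leydig, peritubular myoid, endothelial and red blood cell markers lay within its range. Macrophage markers were below Sa in replicate 1 only. The part of these levels in the counts was not tested.

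Single transcripts varied widely in IMA10. BGI_novel_G000903 was at 0.23, 0.05 and 0.14 FPKM in IMA10 against 7.38, 3.9 and 4.0 in Sa, 0.46, 4.32 and 2.59 in IMC and 20.78, 12.89 and 26.34 in Con. It was low in all 3 IMA10 libraries, replicate 3 included. Its log2 difference between IMA10 and Sa was -2.37 ± 0.44 and did not pass (limma adjusted p = 0.623), but passed without IMA10 replicate 3 (limma adjusted p = 0.0136). BGI_novel_G001239 was listed at 0, 0.01 and 0 FPKM in Sa and had 23.64, 2.29 and 33.16 in IMA10. In IMC it had 0.05, 8.9 and 0.02 FPKM, and in Con 15.1, 22.3 and 17.26. All Con libraries were high, Sa was near 0, and the IMC and IMA10 libraries were split. Its difference of 3.81 ± 0.96 between IMA10 and Sa did not pass (limma adjusted p = 0.64). Without IMA10 replicate 3, its highest IMA10 library, the difference was smaller, at 3.17, yet passed (limma adjusted p = 0.0383). The pooled spread and the adjustment over all rows also change when that library is left out.

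IMA10 and IMC differ in what the microbiota donors were given. No unannotated transcript passed here either (limma, 0 of 1017, with 0% of all rows), and 49 (4.82%) had an unadjusted p under 0.05, against 2.12% of all rows. Without overlap 13 lay higher and 48 lower, against 0.478% and 2.88% of all rows. Without IMA10 replicate 3, 1 was lower (0.013% of all rows), and likewise 1 without Sa replicate 3. BGI_novel_G001239 had the smallest p among those higher, at a log2 difference of 2.68 ± 0.96 with overlapping libraries (limma adjusted p = 1). BGI_novel_G000143 had the smallest among those lower. It had 67.73, 1.72 and 5.07 FPKM in IMA10 and 95.27, 84.02 and 76.68 in IMC, so that IMA10 replicate 1 was near the IMC level and the other two were not (-3.04 ± 0.95, limma adjusted p = 1).

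Values that switched between present and absent within a group were common among the unannotated transcripts. In 254 of 1017 (25.0%), a library was listed at 0 beside another of the same group with at least 1 FPKM, against 222 of 14455 Gene ID rows (1.54%). In 72 of the 1017 the other library reached 5 FPKM, against 61 of the 14455 Gene ID rows. At the limit of 1 FPKM, IMA10 held 176 such transcripts, Sa 97, IMC 78 and Con 44. Of the 14455 Gene ID rows, 194 were of this kind in IMA10 and only 18 in Con. The excess was present at each tier of mean level, with 33.6% against 5.33% below 2 FPKM, 28.6% against 2.1% from 2 to 5, 17.9% against 0.874% from 5 to 20 and 2.74% against 0.353% at 20 FPKM or more. Read depth is unknown and the lengths of these transcripts were not used here, so the number of fragments behind each value is not known. Leaving these 254 out, 313 of the 342 rises and 167 of the 247 falls in Sa minus Con were left. The same exclusion was not applied to Gene ID rows, so no share over all rows stands beside these counts. The spread between replicates was wider too. In the tier of 5 to 20 FPKM the median SD of log2(FPKM + 1) within Con was 0.211 for unannotated transcripts and 0.102 for Gene ID rows, and within Sa 0.315 and 0.186. Within IMC it was 0.348 and 0.181, and within IMA10, the widest group, 1.12 and 0.706.

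**Figure D4:**
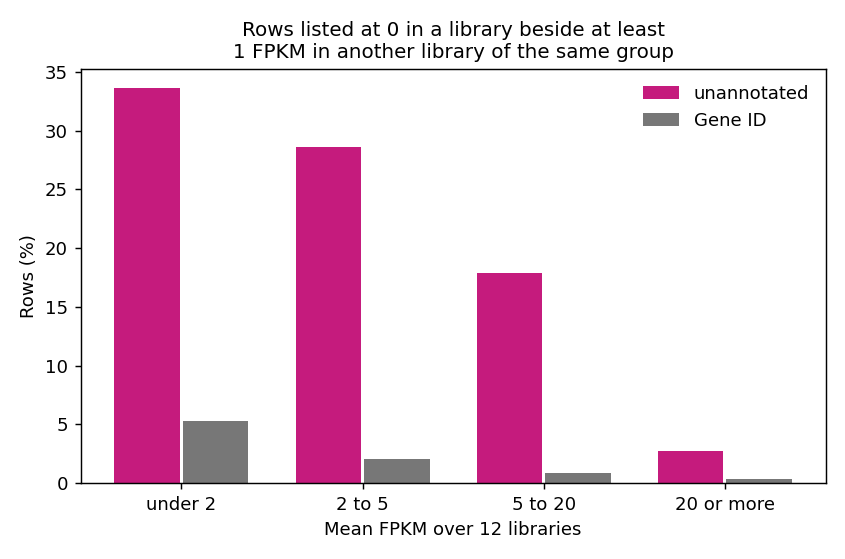
Percent of rows (vertical axis) listed at 0 FPKM in a library while another library of the same group had at least 1 FPKM, by tier of mean FPKM (horizontal axis), for unannotated transcripts and rows with a Gene ID. The unannotated bar is higher in every tier, from 33.6% against 5.33% in the lowest to 2.74% against 0.353% in the highest.

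Transcripts with neighbouring identifier numbers had more similar profiles, in the median, than pairs in general. The identifiers run from 1 to 2057, and what their order stands for is not stated in the sources used here. Over 589 pairs of kept transcripts with consecutive numbers, the median Pearson r across the 12 libraries was 0.464, against 0.0389 over all 516634 pairs. The quartiles of the consecutive pairs were far apart, at -0.28 and 0.836. The median was 0.357 at a difference of 2, 0.232 at 3 and 0.104 at 4. Where both members of a consecutive pair were called in Sa minus Con, 156 of 219 pairs (71.2%) had the same direction, against 51.2% of all pairs. The decline was not steady, with a median of 0.212 at a difference of 10. The pairs share all libraries, and each transcript enters several pairs. Among pairs in which both averaged at least 5 FPKM the medians were 0.352, 0.363 and 0.343 at differences of 1 to 3 and -0.0182 at 4, against 0.058 over all 58309 such pairs. Single differences held few of these pairs. At 50 the median of 46 pairs was 0.606 and at 100 that of 61 pairs was 0.375, both above the median of consecutive pairs.

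**Figure D5:**
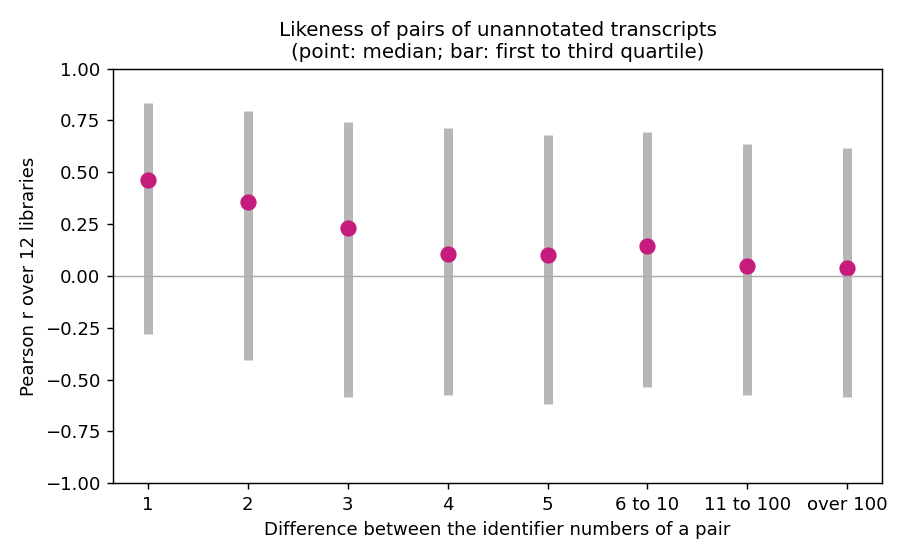
Pearson r of log2(FPKM + 1) over the 12 libraries (vertical axis) for pairs of kept unannotated transcripts, by the difference between their identifier numbers (horizontal axis); points are medians and bars run from the first to the third quartile. The median falls from 0.464 for consecutive numbers to 0.104 at a difference of 4, and the bars are wide throughout.

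Of all 589 consecutive pairs, 26.5% were both called in Sa minus Con in the same direction, against 17.2% of all pairs. Joined into runs of 2 or more consecutive transcripts, 68 runs were called higher and 40 lower, 264 transcripts in all, and 81 of the 108 runs were single pairs. The longest, of 7 each, were numbers 977 to 983, which rose by 0.77 to 1.62 on the log2 scale, and 1620 to 1626, with log2 differences of -2.88 to -0.92. Numbers 1972 to 1977 fell, with differences of -4.41 to -1.33. Whether the members of a run come from 1 locus was not tested.

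Some entries repeated each other exactly. In 2 cases, a pair of kept transcripts had the same value in each library. BGI_novel_G000544 and BGI_novel_G001127 both had 58.95, 69.61 and 15.08 FPKM in Con, 20.73, 26.84 and 55.16 in Sa, 33.25, 56.43 and 60.12 in IMC and 53.98, 72.58 and 91.21 in IMA10. Here the Con libraries differed from each other more than the groups did, with replicate 3 far below the other two. BGI_novel_G000545, chosen after its values were seen, followed the same pattern at a higher level, with 207.19, 263.75 and 53.71 FPKM in Con and a correlation of 0.994 with BGI_novel_G000544. The other pair, BGI_novel_G001942 and BGI_novel_G001943, had 18.89 to 20.45 FPKM in Con and 16.13 to 25.97 over the busulfan libraries. Whether such entries share reads was not tested, and their single values are uncertain.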

How the data were processed

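The deposited table gives the authors' FPKM per library, per the file headers. How reads were aligned, new models assembled and values filtered, and on which genome build, is not given in the sources used here. All 12 value columns were used. Depth is unknown: ratios between libraries of a group at low values showed no step of 1 read, the fullest bin of 0.01 (natural log) holding 0.71 to 2.92% of rows. FPKM divides by library total, so a fall of abundant transcripts raises all others.

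Values were analysed as log2(FPKM + 1), which understates changes of low rows. The filter (1 FPKM or more in 3 or more libraries) left 15472 rows. One linear model with group means and a mean-variance trend was fitted to all 12 libraries (limma 3.58.1, run in R 4.3.3). The 6 differences were adjusted (Benjamini-Hochberg) over all rows; SE is limma's. The procedure was tested on simulated data. Shares were compared by exact two-sided permutation (scipy 1.17.1). Symbols and gene types came from RefSeq (GRCm38.p6), which matched 20141 of 20288 Gene IDs. The sequences of the new models were not used here.

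Named transcripts follow a rule: the 2 highest means, 2 largest rises and 2 largest falls in Sa minus Con (at least 5 FPKM, no overlap), the smallest p in each direction of the comparisons among busulfan groups, the 2 smallest ranges of means, and the 3 most correlated known genes for the highest, rising and falling ones. Members, marker lists and tests were chosen with earlier results of these data known. Alternatives were 2 scalings, a pseudocount of 0.1, omitting the filter or raising it to 5 FPKM, a block for replicate number, fitting only the 2 groups compared, and leaving out each library. One more, without members listed at 0 beside 1 FPKM, was chosen after seeing the data.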

Additional observations from a re-analysis of the deposited data

How the results depend on the processing

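Counts of unannotated transcripts moved with filter and scaling. A filter of 5 FPKM tests fewer rows and left 478 unannotated transcripts. In Sa minus Con 183 rose and 129 fell (38.3% and 27.0%, with 52.4% and 19.3% of all rows). In IMC minus Con 182 rose and 168 fell (38.1% and 35.1%, with 51.5% and 24.3% of all rows). In IMA10 minus Con 176 rose and 170 fell (36.8% and 35.6%, with 50.1% and 25.3% of all rows). The counts were lower than in the main fit, but these shares of unannotated transcripts were higher. With only the 2 groups in the fit, IMA10 minus Con gave 174 rises and 172 falls among 774 (22.5% and 22.2%, with 38.7% and 13.1% of all rows). Falls in Sa minus Con numbered 404 with median-of-ratios scaling (39.7%, with 39.2% of all rows). Rises with quantile normalization numbered 197 in Sa minus Con (19.4%, with 36.8% of all rows) and 223 in IMC minus Con (21.9%, with 39.4%). The cause was not tested. Leaving out 1 library, rises and falls ranged over 299 to 381 and 164 to 345 in Sa minus Con. They ranged over 284 to 363 and 194 to 364 in IMC minus Con and 217 to 351 and 179 to 398 in IMA10 minus Con. In the fits at the ends of these ranges, rises made up 49.7% and 55.7% of all rows in Sa minus Con. They made up 48.6% and 53.7% in IMC minus Con and 41.0% and 51.6% in IMA10 minus Con. Falls made up 12.9% or 13.2% and 30.0% of all rows in Sa minus Con. In IMC minus Con they made up 14.6% and 32.2%, and in IMA10 minus Con 14.8% and 35.0%. Among unannotated transcripts, rises and falls stayed at 0 and 0 in IMC minus Sa. In IMA10 minus Sa they ranged over 0 to 44 and 0 to 193, with 1 fall without Sa replicate 3, and in IMA10 minus IMC over 0 to 0 and 0 to 1.

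The difference in unannotated share, in percentage points, ranged over 0.0537 to 0.165 in Sa minus Con, -0.000104 to 0.11 in IMC minus Con, -0.103 to 0.195 in IMA10 minus Con, -0.113 to 0.00353 in IMC minus Sa, -0.215 to 0.0823 in IMA10 minus Sa and -0.16 to 0.138 in IMA10 minus IMC with 1 library left out. Without the 10 most abundant it was -0.0779, -0.107 and -0.0722 for Sa, IMC and IMA10 minus Con and 0.00568 for IMA10 minus Sa. BGI_novel_G001834 turned to 0.0821 and BGI_novel_G001779 to 0.36 with quantile normalization, BGI_novel_G001950 to -0.55 with median-of-ratios scaling, and leaving out single libraries moved BGI_novel_G001779 over -0.0794 to 0.0914, with 0.0174 and 0.025 when Con replicates 2 and 3 were dropped.

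Replicate numbers did not pair the samples: 5 of 18 same-numbered pairs had deviations correlated over 0.1 (-0.765 to 0.546), and 1 of 12 libraries correlated best with its own number. With the replicate block 332 rose and 215 fell in Sa minus Con (32.6% and 21.1%, with 50.5% and 16% of all rows). Unknown depth limits all low values.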
